A study of Mus musculus with 6 samples.

Results

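The respiratory chain subunits encoded in the nucleus were examined in orthotopic mouse liver tumors. The members were the genes whose symbol begins with Ndufa, Ndufb, Ndufc, Ndufs, Ndufv, Uqcr, Cox4, Cox5, Cox6, Cox7, Cox8 or Atp5, without symbols that mark pseudogenes. This gave 86 of 55536 genes counted. They comprised 36 genes of complex I, 8 of complex III, 17 of complex IV, 15 of complex V, 8 Ndufaf assembly factors of complex I, and Atp5s and Cox7a2l, which share a prefix but are not subunits. Ndufa4 and Ndufa4l2 were placed with complex IV, where the Ndufa4 protein is now assigned. Of these genes, 83 passed the filter on low counts. The other 3, Cox6a2, Cox6b2 and Cox8b, are subunit isoforms known mainly from muscle, testis and brown fat, and had between 0 and 21 counts in every library.

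The respiratory chain sits in the inner mitochondrial membrane, where complexes I, III and IV pass electrons from NADH to oxygen and pump protons, and complex V (ATP synthase) uses the proton gradient to make ATP. Most subunits are encoded in the nucleus and imported, while a small core is encoded by mitochondrial DNA (mtDNA) and made on ribosomes inside the organelle. Hepatocytes are rich in mitochondria, and several subunits exist as a broad form and a form that is restricted to a tissue or induced by low oxygen.

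RNA was sequenced from tumors that HCA-1 cells, a murine hepatocellular carcinoma (HCC) line, formed after implantation in the livers of male C3H mice (C3H/HeNCrNarl in the methods of the study) 6 to 8 weeks old. The tumors of 3 untreated mice (Control 5, 6 and 7) were compared with those of 3 mice given GOx-DOX-LGP intravenously (GOx-DOX-LGP 1, 2 and 5), a lipid-coated gelatin and protamine nanogel that carries glucose oxidase (GOx) in its core and doxorubicin (DOX) in its shell. GOx consumes glucose and oxygen and makes hydrogen peroxide, and DOX is a DNA-damaging drug. No library came from an empty nanogel or a single agent, so that GOx, DOX, the carrier and the injections cannot be told apart. The labels give dosing on days 18, 19 and 20 and a circulation of 3 h, but place the transcriptome on day 17. Nothing states that the libraries came from separate experiments, so that p-values measure the spread between these 6 tumors.

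Library totals lay between 15529940 and 18401178 counts. Levels are CPM (counts scaled to library size) scaled by TMM factors, which were 0.758 and 0.569 in Controls 6 and 7 and between 1.21 and 1.24 in the other 4 libraries. Control 5 stood apart from the other untreated tumors. Albumin (Alb), a secreted hepatocyte protein, took 0.0437% of all counts in Control 5, 5.58% in Control 6 and 7.28% in Control 7 against 0.234%, 0.0888% and 0.131% in GOx-DOX-LGP 1, 2 and 5. Each comparison of levels was therefore also made without Control 5, and with Control 5 as the only control.

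Levels per length of exon were set out to compare the genes with each other. On the RPKM scale (CPM per kilobase of the merged exons of each gene, so that a gene with long rare transcripts reads low), the median over the members of a complex in control tumors was 112 for complex IV, 95.8 for complex III, 64.0 for complex V and 45.4 for complex I. The Ndufaf assembly factors, which build complex I but are not part of it, had a median of 6.24 RPKM. In GOx-DOX-LGP tumors these medians were 37.3, 37.2, 37.5, 20.1 and 5.72 RPKM. The highest mean levels in controls were those of the catalytic head of ATP synthase, Atp5b at 299 ± 131 RPKM and Atp5a1 at 279 ± 145 RPKM (SD, n = 3), followed by Cox6b1 at 251 ± 123 and Cox4i1 at 228 ± 118 RPKM. These neighbors in the order differ by less than their SDs. The lowest levels were those of the restricted complex IV isoforms Cox4i2 (1.13 ± 1.23 RPKM) and Cox7a1 (1.48 ± 0.588 RPKM).

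The promoters were searched for short motifs, because factors that bind to such motifs are known to act on respiratory chain genes together. RefSeq windows on GRCm38.p6, from 250 bases before to 50 bases after a start site, were at hand for 70 members (75 windows, beside 32851 windows of all genes). For 60 of the 75, the first 30 transcribed bases were found in a GENCODE transcript of the same gene. The windows of all genes were not matched to those of the members in base content. The palindrome formed by GCGCA and its reverse complement TGCGC, the element of nuclear respiratory factor Nrf1, was present in 9.33% of the member windows (7 windows) and in 0.971% of all windows. The shorter CATGCGC, which lies within it and was read on both strands, was present in 18.7% and 3.91%. CCGGAAG, a motif of ETS factors such as GABP, was found in 21.3% and 8.86%, and ATGGCGG, the core of the Yy1 motif, in 17.3% and 4.05%. CCAAT was nearly as frequent in all windows, at 41.3% and 37.4%. Of the 13 windows with ATGGCGG, 9 belonged to complex I, which had 34 of the 75 windows, and Ndufa7 gave a pair of the 9 through alternative starts. The 7 windows with the palindrome are given with 10 bases on each side of it, 5′ to 3′ on the strand of the gene, because they hold the most specific letters that the members share and belong to members with very different values. The palindrome is in capitals.

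Atp5g2: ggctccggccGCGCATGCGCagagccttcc
Atp5k: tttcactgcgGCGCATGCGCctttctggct
Cox6a1: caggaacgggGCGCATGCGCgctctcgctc
Ndufa11: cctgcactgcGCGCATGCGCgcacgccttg
Ndufaf4: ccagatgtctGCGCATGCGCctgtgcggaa
Ndufaf5: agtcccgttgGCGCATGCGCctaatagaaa
Uqcrc1: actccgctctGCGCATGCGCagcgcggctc

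They lie at chr15:102671070-102671099 (minus strand) for Atp5g2, chr5:108434430-108434459 (minus) for Atp5k, chr5:115349101-115349130 (minus) for Cox6a1, chr17:56717692-56717721 (plus) for Ndufa11, chr4:24897960-24897989 (plus) for Ndufaf4, chr2:140170652-140170681 (plus) for Ndufaf5 and chr9:108936668-108936697 (plus) for Uqcrc1. The palindrome began between positions -162 and -42 from the start in the windows of Atp5g2, Atp5k, Cox6a1, Ndufa11 and Ndufaf4, and at positions 16 and 30 after it in those of Ndufaf5 and Uqcrc1. A match is a description of these letters and not of binding. The log2 fold changes of these genes ran from -1.36 for Cox6a1, -1.30 for Atp5k and -1.21 for Uqcrc1 through -0.81 for Ndufa11 and -0.77 for Ndufaf4 to 0.16 for Atp5g2 and 0.40 for Ndufaf5.

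Subunit genes of all 4 complexes were read at lower mean levels in GOx-DOX-LGP tumors than in controls, but the difference followed 2 of the 3 control tumors. The mean log2 CPM over the 83 members was 4.85, 6.08 and 6.43 in Controls 5, 6 and 7 against 5.05, 4.94 and 5.31 in GOx-DOX-LGP 1, 2 and 5. Controls 6 and 7 were high and Control 5 was the lowest of all 6 libraries, so that the groups overlapped. The log2 fold change, GOx-DOX-LGP minus control, was negative for 77 members and positive for 6, with a median of -0.92, where 48.9% of all 15374 genes kept were negative and their median was 0.02. After Benjamini-Hochberg adjustment over all genes, 0 of 83 members passed 0.05 in edgeR's quasi-likelihood test (0% of all genes), and their adjusted p lay between 0.247 and 0.956. At an unadjusted p under 0.05 there were 14 members lower (14.6% of all genes were) and 1 higher (2.87%). The groups did not overlap for 1 lower member, Ndufs1 (8.31% of all genes), and for 1 higher member, Ndufa4l2 (8.87%). DESeq2 called 1 member lower, Ndufa4, and 0 higher (8.86% and 0.567% of genes with an adjusted p).

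**Figure D1:**
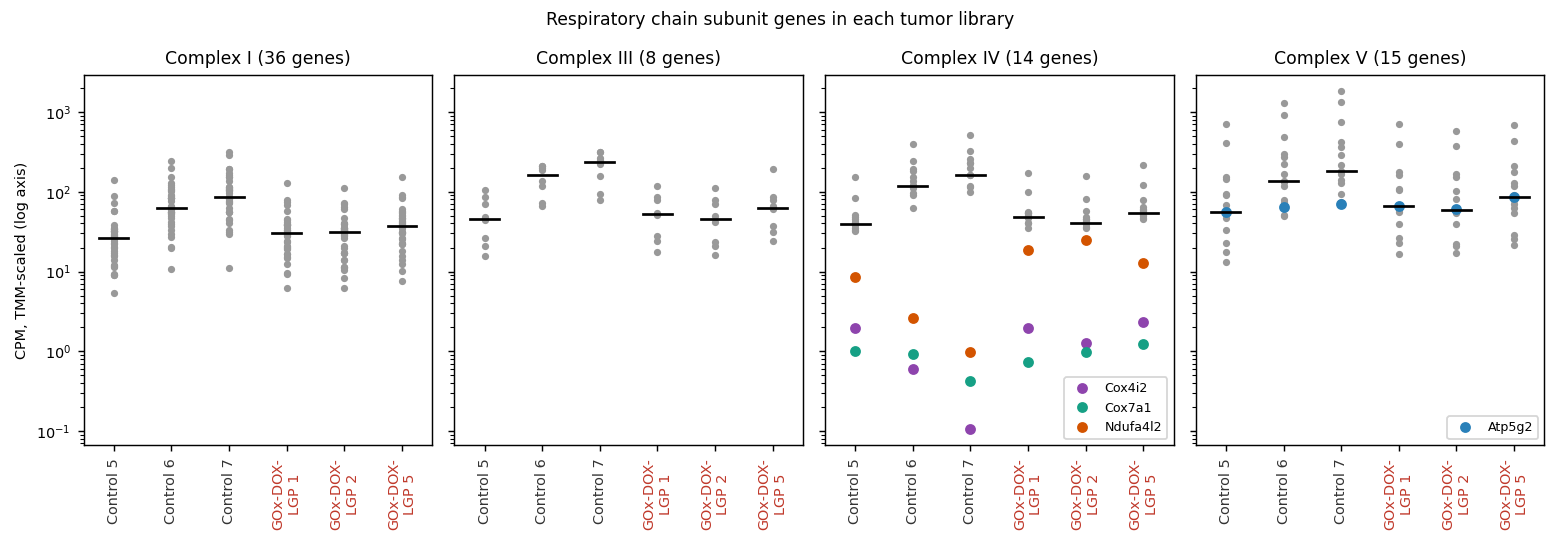
TMM-scaled CPM on a log axis of the members kept, by complex, in each of the 6 libraries; each point is a gene and the black bar is the median of the panel in that library. The bars stand higher in Controls 6 and 7 than in Control 5 and the GOx-DOX-LGP libraries, while Cox4i2, Cox7a1 and Ndufa4l2 (colored, complex IV) were lowest in Control 7 and Atp5g2 (colored, complex V) stayed between 55.6 and 85.4 CPM.

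The order of the libraries was alike for most members. Controls 6 and 7 were both above the other 4 libraries for 75 of 83 members, where 32.9% of all genes had this order, which was looked for after the values had been seen. Control 7 was the highest of the 6 libraries for 77 members (33.5% of all genes). Among the treated tumors, GOx-DOX-LGP 5 was highest for 75 members (36.4% of all genes). Control 5 lay within the range of the GOx-DOX-LGP tumors for 32 members (45.6% of all genes) and below both other controls for 78. These orders were read with TMM scaling, which raises Controls 6 and 7 against the other libraries, and were not counted with library totals alone. The members' summed share of all counts was also highest in Controls 6 and 7 (0.785% and 0.811%). Single genes such as Ndufa7 did not have the order in raw counts (736, 612 and 523 against 654, 715 and 769).

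The result turned with the choice of controls. Without Control 5, edgeR's quasi-likelihood test with Benjamini-Hochberg adjustment called 69 members lower and 2 higher, Ndufa4l2 and Cox4i2, where 25.5% of all genes were called lower and 22.2% higher, and the median log2 fold change was -1.23. With Control 5 as the only control, 75 of 83 members were higher in GOx-DOX-LGP tumors and 8 lower, with a median of 0.30 and 0 calls, where 53.5% of all genes were higher. In that fit the lone control was assumed to vary like the treated tumors. Leaving out any other library gave 0 calls, and 0 members lower at an unadjusted p under 0.05 (3.17% to 7.27% of all genes). Without Control 7 the member median was -0.54, and those of complexes I, III, IV and V and the assembly factors were -0.53, -0.82, -0.55, -0.59 and -0.14. Scaling by library totals alone, without TMM factors, moved the median of all genes to 0.51 and that of the members to -0.18, with 58 of 83 members below 0 and 76 below the median of all genes.

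**Figure D2:**
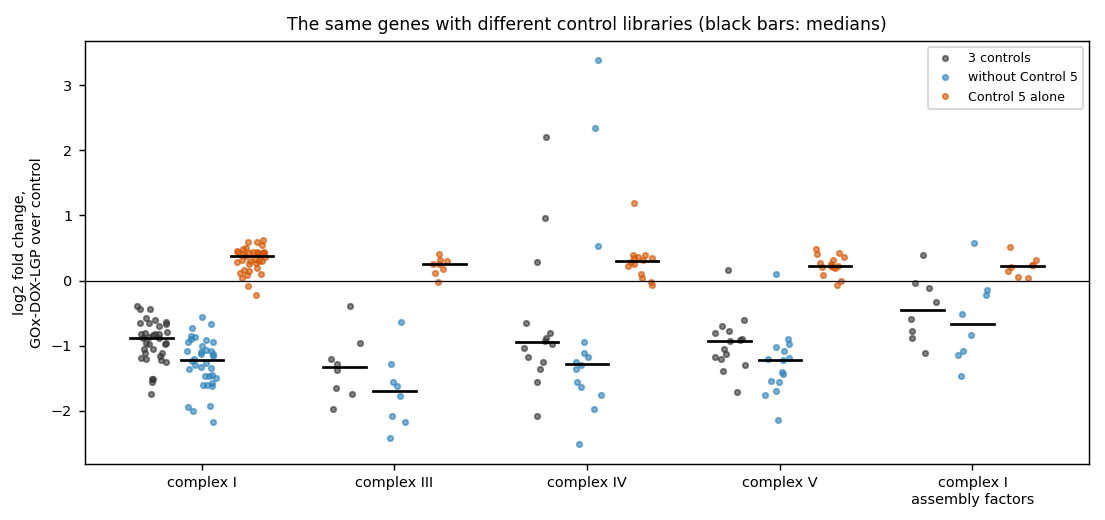
Log2 fold change of each member (points, by complex) with all controls, without Control 5, and with Control 5 as the only control. The median over all members was -0.92, -1.23 and 0.30 in these fits.

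Complex I, the NADH dehydrogenase that takes up electrons, had all 36 genes at negative log2 fold changes, from -1.74 to -0.39 with a median of -0.88. Its 7 nuclear core subunits, which carry the flavin and the iron-sulfur clusters, had a median of -0.83, and the 29 supernumerary subunits, which surround and stabilize the core, -0.95. The mean log2 CPM over complex I was 4.61, 5.98 and 6.41 in Controls 5, 6 and 7 against 4.84, 4.75 and 5.13 in GOx-DOX-LGP 1, 2 and 5. With TMM scaling, Control 6 was at a median of 2.46 times the level of Control 5 over these genes (range 1.48 to 5.35). Control 7 was at 3.44 times (range 1.74 to 7.14). The untreated tumors differed among themselves by more than the groups did on average. Without Control 5, 34 of the 36 were called lower (25.5% of all genes were), and the median was -1.22. With Control 5 as the only control, 34 were higher and the median was 0.37.

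The largest differences in complex I were those of the accessory subunits Ndufb9, Ndufs6 and Ndufa1. Ndufb9 measured 15.9, 77.3 and 113 CPM in Controls 5, 6 and 7 against 19.5, 17.1 and 25.2 CPM in GOx-DOX-LGP 1, 2 and 5. Control 5 was below every treated tumor and Controls 6 and 7 were far above them. The log2 fold change, -1.74 with a standard error of 0.67, had an adjusted p of 0.268 in edgeR's quasi-likelihood test, and its transcripts share 15.6% of their stretches of 50 bases with Gm49356, which overlaps it. Ndufs6, of the peripheral arm, measured 11.5, 61.7 and 82.4 CPM in controls against 16.6, 14.1 and 22.3 CPM in treated tumors, a log2 fold change of -1.56 (standard error 0.68). Ndufa1, an X-linked subunit of the membrane arm, measured 9.08, 39.6 and 55.2 CPM in controls against 12.3, 11.6 and 12.3 CPM in treated tumors, a log2 fold change of -1.52 (standard error 0.62). For both genes Control 5 was again the lowest library. The smallest differences were those of the accessory subunits Ndufa7 (-0.39, standard error 0.26), Ndufb3 (-0.43, standard error 0.44) and Ndufb2 (-0.44, standard error 0.35). With TMM scaling their Control 7 was at 1.74, 3.07 and 2.04 times the level of Control 5. Raw counts in Controls 5 and 7 were 736 and 523 for Ndufa7, 632 and 791 for Ndufb3, and 124 and 103 for Ndufb2.

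Ndufs1, the largest core subunit with several of the iron-sulfur clusters, was the only member whose controls all lay above the treated tumors. It measured 87.2, 129 and 195 CPM in Controls 5, 6 and 7 against 74.0, 65.1 and 84.2 CPM in GOx-DOX-LGP 1, 2 and 5. The lowest control and the highest treated tumor were close. The log2 fold change, -0.88 with a standard error of 0.34, had an adjusted p of 0.267 in edgeR's quasi-likelihood test, with -0.21 against Control 5 alone. The gene (ENSMUSG00000025968) lies on chromosome 1 of GRCm38 from 63143596 to 63176833, and Ino80dos and Eef1b2 overlap its exons on the opposite strand. The use of strand in counting is not given in the sources used here, so that reads of such partners cannot be told apart.

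Complex III, which passes electrons from ubiquinol to cytochrome c, had the lowest median of the complexes, -1.33, with all 8 genes negative (range -1.96 to -0.40). Averaged over its genes, log2 CPM stood at 5.42, 7.11 and 7.56 in Controls 5, 6 and 7 against 5.58, 5.40 and 5.88 in GOx-DOX-LGP 1, 2 and 5. With TMM scaling, Control 6 was at a median of 2.90 times and Control 7 at 4.43 times the level of Control 5. Without Control 5 the median was -1.69, with 7 genes called lower (25.5% of all genes were), and with Control 5 as the only control it was 0.25. Whether the median of complex III differs from that of the other complexes was not tested.

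Uqcrq, a small subunit that binds ubiquinone, measured 20.8, 119 and 157 CPM in Controls 5, 6 and 7 against 24.0, 21.02 and 31.0 CPM in GOx-DOX-LGP 1, 2 and 5. A log2 fold change of -1.96 (standard error 0.70) had an adjusted p of 0.250 in edgeR's quasi-likelihood test and of 0.0728 in DESeq2. Uqcrfs1, the Rieske iron-sulfur protein that takes up the electron, measured 48.3, 212 and 310.5 CPM in controls against 54.7, 50.2 and 65.8 CPM in treated tumors (log2 fold change -1.74, standard error 0.64). No stretch of 50 bases of either gene occurs in another gene, and for both Control 5 was the lowest library. Uqcr11 followed with -1.65 (standard error 0.63). The core proteins Uqcrc1 and Uqcrc2, which face the matrix, had -1.21 and -1.28, and the small subunits Uqcrb and Uqcr10 had -1.38 and -0.96. Uqcrh, the hinge protein beside cytochrome c1, differed least at -0.40 (standard error 0.40), with 106, 198 and 248 CPM in controls against 119, 110 and 191 CPM in treated tumors, where GOx-DOX-LGP 5 was close to Control 6.

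**Figure D3:**
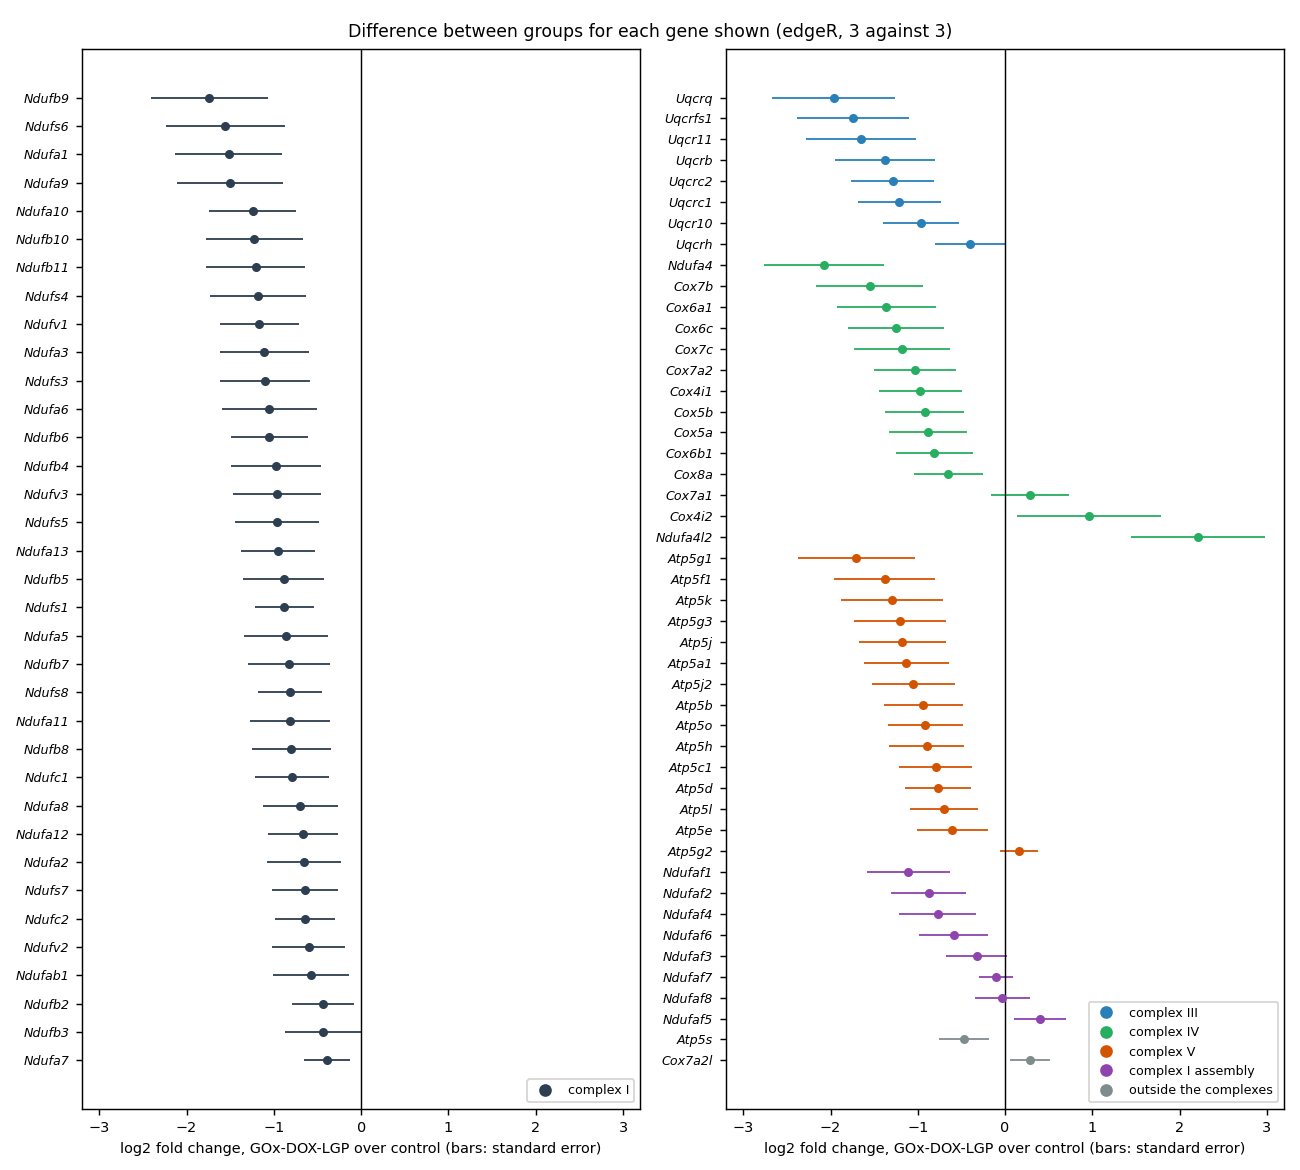
Log2 fold change (GOx-DOX-LGP minus control) of the members kept except 1 that is not reported here, ordered within their complex, with bars of 1 standard error from edgeR. Ndufa4 (-2.08) and Ndufa4l2 (2.21) are the extremes, and all but 6 points lie below 0.

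Complex IV, cytochrome c oxidase, hands the electrons to oxygen. Of 14 genes kept, 11 were negative and 3 positive, with a median log2 fold change of -0.95 (-1.28 without Control 5 and 0.30 against Control 5 alone). All 11 negative genes were high in Controls 6 and 7. The 3 positive genes were Ndufa4l2, Cox4i2 and Cox7a1, the isoforms restricted to a tissue or a condition. Among the subunits with one broad form, Cox7b, an X-linked subunit, measured 38.0, 153 and 229.5 CPM in Controls 5, 6 and 7 against 46.4, 45.4 and 51.7 CPM in GOx-DOX-LGP 1, 2 and 5 (log2 fold change -1.55, standard error 0.61). Cox6a1, the liver form of subunit VIa, had -1.36 (standard error 0.57). Cox8a and Cox6b1, other broad forms, had -0.65 (standard error 0.39) and -0.81 (standard error 0.44).

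Ndufa4, a subunit first assigned to complex I, had the largest negative difference of all members. It measured 47.7, 244 and 326 CPM in Controls 5, 6 and 7 against 51.0, 36.55 and 58.7 CPM in GOx-DOX-LGP 1, 2 and 5. Control 5 lay among the treated tumors. A log2 fold change of -2.08 (standard error 0.69) had an adjusted p of 0.247 in edgeR's quasi-likelihood test and of 0.0453 in DESeq2. It was -2.52 without Control 5 (adjusted p = 0.000282 from edgeR's quasi-likelihood test) and 0.05 against Control 5 alone. The gene (ENSMUSG00000029632) lies on chromosome 6 from 11900292 to 11907497, and no stretch of 50 bases of its transcripts occurs in another gene.

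Ndufa4l2, its paralog, is known as a target of hypoxia-inducible factor that lowers complex I activity. It measured 8.42, 2.63 and 0.968 CPM in Controls 5, 6 and 7 (192, 31 and 9 counts) against 18.9, 25.2 and 12.7 CPM in GOx-DOX-LGP 1, 2 and 5 (382, 514 and 245 counts). Every treated tumor was above every control, and Control 5 was the nearest. A log2 fold change of 2.21 (standard error 0.77) had an adjusted p of 0.247 in edgeR's quasi-likelihood test and of 0.0519 in DESeq2. Without Control 5 it was 3.39 (adjusted p = 0.00166 from edgeR's quasi-likelihood test), and against Control 5 alone it was still positive, at 1.18. The gene (ENSMUSG00000040280) lies on chromosome 10 from 127514967 to 127517154, where Shmt2 overlaps its exons on the opposite strand.

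The balance between the paralogs was read within each library, as the log2 ratio of Ndufa4l2 to Ndufa4 CPM (prior count of 2), where the scaling between libraries enters only through the prior count. It was -2.48, -6.47 and -8.23 in Controls 5, 6 and 7 against -1.43, -0.535 and -2.19 in GOx-DOX-LGP 1, 2 and 5. The groups did not overlap, with a difference of 4.35, although Control 5 was only just below GOx-DOX-LGP 5. The two-sided exact permutation test gave p = 0.1, the smallest that 3 libraries against 3 allow, and 0.2 after Benjamini-Hochberg adjustment over the 6 balances tested. The difference was between 3.10 and 5.96 when any library was left out or another prior count was used. Balances between paralogs were not read against Control 5 alone.

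Cox4i2, the form of subunit IV found in lung and induced by low oxygen, measured 1.97, 0.594 and 0.108 CPM in Controls 5, 6 and 7 (45, 7 and 1 counts) against 1.98, 1.27 and 2.34 CPM in GOx-DOX-LGP 1, 2 and 5 (40, 26 and 45 counts). Control 5 was level with the treated tumors. Its log2 fold change was 0.96 (standard error 0.82), 2.34 without Control 5 (adjusted p = 0.0276 from edgeR's quasi-likelihood test) and -0.07 against Control 5 alone. The log2 ratio to the broad form Cox4i1 differed by 2.29 with overlap between the groups (two-sided exact permutation test, p = 0.4, adjusted p = 0.4). Cox7a1, the form of heart and skeletal muscle, measured between 0.430 and 1.25 CPM in all libraries (log2 fold change 0.29, standard error 0.45), while the broad Cox7a2 had -1.03 (standard error 0.47). Their log2 ratio differed by 1.19 (two-sided exact permutation test, p = 0.3, adjusted p = 0.36). Of 8 skeletal muscle markers 1 passed the filter, at 0.570 to 1.98 CPM.

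Complex V, the ATP synthase, had 14 of 15 genes negative with a median log2 fold change of -0.94. Averaged over its genes, log2 CPM stood at 6.14, 7.43 and 7.87 in Controls 5, 6 and 7 against 6.32, 6.19 and 6.56 in GOx-DOX-LGP 1, 2 and 5. The median was -1.23 without Control 5, with 14 genes called lower (25.5% of all genes were), and 0.22 against Control 5 alone. The 5 genes of the catalytic F1 head (Atp5a1, Atp5b, Atp5c1, Atp5d and Atp5e) lay between -1.13 and -0.60. Atp5b, the catalytic beta subunit, measured 701, 1293 and 1809 CPM in controls against 709, 585 and 695 CPM in treated tumors (log2 fold change -0.94, standard error 0.45). Control 5 was again level with the treated tumors. Atp5f1, of the stalk that holds the head still, had -1.38 (standard error 0.58), Atp5k, at the dimer interface, -1.30 (standard error 0.59), and Atp5l and Atp5e differed least among the negative genes, at -0.70 (standard error 0.39) and -0.60 (standard error 0.40).

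Subunit c, which forms the rotating ring, is encoded by 3 genes whose mature protein is the same, and they did not go together. Atp5g1 measured 17.6, 78.8 and 129 CPM in Controls 5, 6 and 7 against 22.8, 21.02 and 25.3 CPM in GOx-DOX-LGP 1, 2 and 5 (log2 fold change -1.70, standard error 0.67). Atp5g3 measured 92.0, 274 and 364 CPM in controls against 107, 80.3 and 130.4 CPM in treated tumors (log2 fold change -1.20, standard error 0.53). Atp5g2 measured 55.6, 63.9 and 70.4 CPM in controls against 66.4, 60.6 and 85.4 CPM in treated tumors (log2 fold change 0.16, standard error 0.22). The first pair had the order of nearly all members, with Controls 6 and 7 high, while Atp5g2 varied little over the 6 libraries with TMM scaling. With library totals alone its log2 fold change was 0.73, beside a median of 0.51 over all genes, and its raw counts were 1267, 753 and 654 against 1343, 1236 and 1641.

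The share of Atp5g2 in the counts of the 3 genes was 33.65%, 15.3% and 12.5% in Controls 5, 6 and 7 against 33.8%, 37.4% and 35.4% in GOx-DOX-LGP 1, 2 and 5. The groups did not overlap, although Control 5 was only just below the lowest treated tumor (difference 15.1 percentage points, two-sided exact permutation test, p = 0.1, adjusted p = 0.2). The share of Atp5g3 was 55.7%, 65.8% and 64.6% against 54.6%, 49.6% and 54.1% (p = 0.1, adjusted p = 0.2, same exact test), and that of Atp5g1 10.6%, 18.9% and 22.9% against 11.6%, 12.98% and 10.5%, with overlap (p = 0.3, adjusted p = 0.36, same exact test). For Atp5g2, 38.3% of the stretches of 50 bases also occur in other annotated genes, among them Gm10175 and Gm10231, so that its counts are uncertain. For Atp5g1 this share was 11.1% and for Atp5g3 0%.

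**Figure D4:**
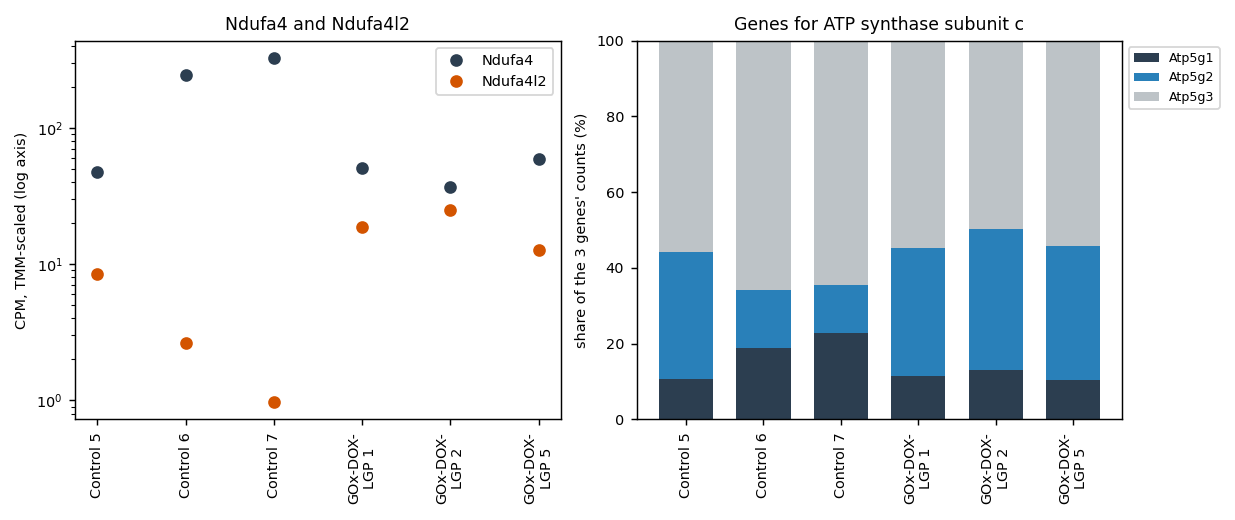
Left, CPM of Ndufa4 and Ndufa4l2 in each library on a log axis. Right, the share of Atp5g1, Atp5g2 and Atp5g3 in their summed counts. Ndufa4 and Ndufa4l2 lie far apart in Controls 6 and 7 and closest in GOx-DOX-LGP 2, and the share of Atp5g2 is 15.3% and 12.5% in Controls 6 and 7 and between 33.65% and 37.4% in the other libraries.

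The 8 Ndufaf assembly factors, which put complex I together and leave it, differed less than the subunits, with 7 negative and a median log2 fold change of -0.46. The median was -0.67 without Control 5, with 3 called lower (25.5% of all genes were), and 0.22 against Control 5 alone. With library totals in place of TMM it was 0.21, beside 0.51 over all genes. Ndufaf1, a chaperone of the membrane arm, measured 13.6, 38.4 and 51.2 CPM in Controls 5, 6 and 7 against 16.7, 16.5 and 14.6 CPM in GOx-DOX-LGP 1, 2 and 5 (log2 fold change -1.11, standard error 0.48). Ndufaf2 had -0.87 (standard error 0.43), with 64.1% of its stretches shared with other genes, the highest share of any member, and Ndufaf4 had -0.77 (standard error 0.44). Ndufaf7, a methyltransferase, and Ndufaf8 had -0.11 (standard error 0.19) and -0.03 (standard error 0.31). Ndufaf5, which hydroxylates Ndufs7, measured 9.13, 7.63 and 6.03 CPM in controls against 9.54, 7.99 and 12.5 CPM in treated tumors (log2 fold change 0.40, standard error 0.30), the reverse order among the controls. A test of assembly factors against subunits was not made.

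Cox7a2l, which helps complexes III and IV join in a supercomplex, did not share the order of the subunits with TMM scaling or in raw counts. It measured 139, 137 and 149 CPM in Controls 5, 6 and 7 against 147, 172 and 200.5 CPM in GOx-DOX-LGP 1, 2 and 5 (log2 fold change 0.29, standard error 0.23). Controls 6 and 7 were at 0.982 and 1.07 times the level of Control 5 with TMM scaling. With library totals alone the log2 fold change was 0.82, and the raw counts were 3176, 1614 and 1384 in controls against 2975, 3505 and 3853. Atp5s, a factor associated with ATP synthase, had -0.47 (standard error 0.28).

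The chain genes outside the prefixes were also highest in Controls 6 and 7. The 13 mtDNA-encoded subunits all had negative log2 fold changes, with a median of -1.87 (-2.32 without Control 5 and 0.40 against Control 5 alone). Controls 6 and 7 were above the other libraries for all 13. They took 2.06%, 6.38% and 8.32% of all counts in Controls 5, 6 and 7 against 2.55%, 2.96% and 2.40% in GOx-DOX-LGP 1, 2 and 5, while the 86 nuclear members took 0.536%, 0.785% and 0.811% against 0.586%, 0.525% and 0.687%. The mtDNA-encoded counts were 3.83, 8.13 and 10.3 times the nuclear ones in the controls and 4.35, 5.64 and 3.50 times in the treated tumors. Counts within the list were uneven, from 12 for mt-Atp8 to 150188 for mt-Co1 in Control 5, so that genes such as mt-Co1 weigh most in these shares and ratios. The reason for this spread was not tested. The largest differences were those of mt-Nd2, a complex I subunit, and mt-Atp8 of the ATP synthase (-2.56 and -2.41, standard errors 1.04 and 0.93). For mt-Atp8 this rests on few counts, 12, 24 and 45 in Controls 5, 6 and 7 against 9, 15 and 3 in GOx-DOX-LGP 1, 2 and 5. Of the 6 other nuclear genes, for complex II, cytochrome c and cytochrome c1 (Cyc1, a core subunit of complex III), all were negative with a median of -1.25. Against Control 5 alone their median was 0.06. With library totals alone the medians of the mtDNA-encoded and these nuclear genes were -1.02 and -0.48. Sdha, the flavoprotein of complex II, measured 131, 443 and 667 CPM in controls against 130, 129 and 124 CPM in treated tumors (log2 fold change -1.70, standard error 0.58), and Cyc1 had -1.55 (standard error 0.55). Of these genes 0 had an adjusted p under 0.05 from edgeR's quasi-likelihood test with all controls, while 4 mtDNA-encoded and 3 nuclear genes were lower at an unadjusted p under 0.05 (14.6% of all genes) and DESeq2 called 1 mtDNA-encoded gene lower (8.86%).

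**Figure D5:**
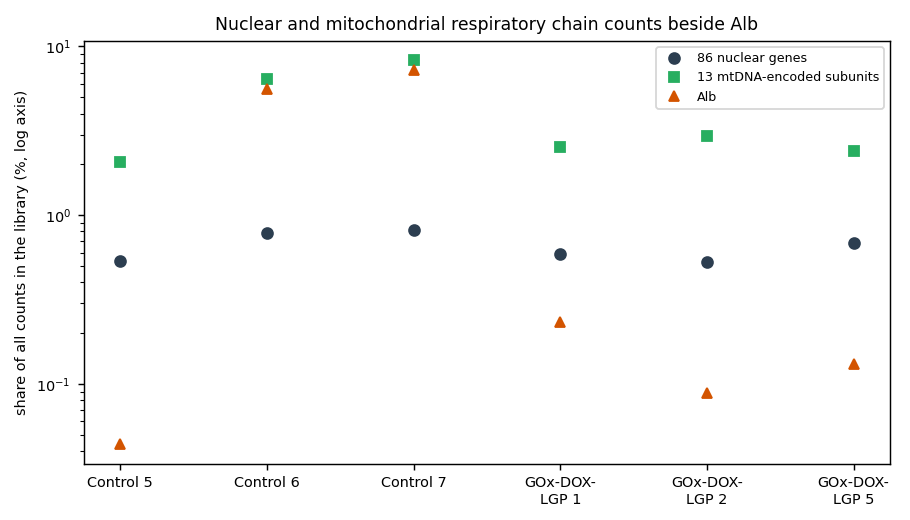
Share of all counts in each library, in percent on a log axis, taken by the 86 nuclear members, the 13 mtDNA-encoded subunits and Alb. All 3 are highest in Controls 6 and 7, at 0.785% and 0.811%, 6.38% and 8.32%, and 5.58% and 7.28%.

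Lists of other mitochondrial genes had medians nearer to 0, although single genes reached beyond the members, and a test against the members was not made. The medians of the first 4 lists that follow turned positive (0.23, 0.26, 0.35 and 0.23) with library totals in place of TMM, where the median of all genes was 0.51. Against Control 5 alone, with TMM, these 4 medians were 0.20, 0.10, 0.03 and -0.09. Of 77 mitochondrial ribosomal proteins, which make the mtDNA-encoded subunits, 68 were negative with a median log2 fold change of -0.42, and Mrpl27 and Mrpl15 differed most (-1.15 and -1.09). The assembly factors of complexes III to V had 19 of 24 negative and a median of -0.39, with Cox19 (-1.41) and Cox11 (-1.26) the most distant. Cox11 (standard error 0.77) had few counts, 20, 13 and 32 in Controls 5, 6 and 7 against 5, 24 and 15 in GOx-DOX-LGP 1, 2 and 5. Of 14 proteins used as measures of mitochondrial mass, 8 were negative with a median of -0.25, and Phb2 and Phb differed most (-0.83 and -0.79). Among 14 regulators of mitochondrial biogenesis 11 were negative with a median of -0.34. The coactivators Ppargc1b and Ppargc1a were the extremes. Ppargc1b measured 1.75, 11.9 and 15.5 CPM in Controls 5, 6 and 7 against 1.48, 0.980 and 2.13 CPM in GOx-DOX-LGP 1, 2 and 5 (log2 fold change -2.65, standard error 0.82), and Ppargc1a had -2.04 (standard error 0.64). A list of uncouplers, ADP/ATP carriers and other mitochondrial genes had 3 of 6 genes negative (median -0.33, and 0.21 against Control 5 alone). Its carriers went opposite ways, with -1.15 (standard error 0.49) for the broad Slc25a5 and 1.02 (standard error 0.58) for Slc25a4, the form of heart and muscle. The uncoupler Ucp2 had 0.725 (standard error 0.336). Romo1, Higd1a and Higd2a, which are neither uncouplers nor carriers, had -0.792, 0.134 and -0.908. With all controls, edgeR's quasi-likelihood test called 0 genes of these lists. At an unadjusted p under 0.05 there were 2 ribosomal proteins lower, 2 assembly factors lower and 1 higher, and 3 regulators lower, and DESeq2 called 2 regulators lower, beside the same shares of all genes as above.

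Of 10 genes induced by low oxygen, set beside Ndufa4l2 and Cox4i2, 7 were positive, all 7 without overlap between the groups (8.87% of all genes), and the median log2 fold change was 1.32. The 3 negative genes were Pdk1 (-0.79, standard error 0.52), Bnip3 (-0.58, standard error 0.52) and Vegfa (-0.20, standard error 0.25), named after their values had been seen. Car9, a carbonic anhydrase, had 2.99 (standard error 0.71) and Adm, adrenomedullin, 2.15 (standard error 0.77), and against Control 5 alone they had 1.97 and 1.05. The calls of edgeR's quasi-likelihood test with all controls were again 0, while 4 genes were higher at an unadjusted p under 0.05 (2.87% of all genes) and DESeq2 called 2 higher (0.567%).

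Markers of other cell types differed between libraries too, and not all in the order of the members. All 11 hepatocyte markers kept, of 12, had negative log2 fold changes with a median of -5.36, and their summed level was 712 CPM in Control 5, 131900 and 214600 CPM in Controls 6 and 7, and 1513 to 3734 CPM in the treated tumors. Endothelial markers (7 of 8 negative, median -1.10) summed to 167, 319 and 358 CPM in Controls 5, 6 and 7 and to 115 to 153 CPM in treated tumors. Erythroid markers (4 of 7 kept, all negative, median -2.90) summed to 13.2, 404 and 425 CPM in Controls 5, 6 and 7 and to 13.8 to 42.0 CPM in treated tumors. Macrophage markers (8 of 8 positive, median 1.02) summed to 1483, 1171 and 740 CPM in Controls 5, 6 and 7 and to 1420 to 3936 CPM in treated tumors. T cell markers (8 of 8 positive, median 1.40) summed to 101, 61.1 and 33.8 CPM in Controls 5, 6 and 7 and to 137 to 205 CPM in treated tumors. Fibroblast markers (6 of 8 positive, median 0.79) summed to 5718, 1723 and 1403 CPM in these controls and to 2230 to 6915 CPM in treated tumors. Pericyte markers (4 of 8 positive, median 0.00) summed to 288, 360 and 382.5 CPM in Controls 5, 6 and 7 and to 140 to 213 CPM in treated tumors. Control 5 was below both other controls for only 3 of these 8. Among the 3 was Rgs5 at 65.2, 210 and 253 CPM in Controls 5, 6 and 7, the largest value of the list in Controls 6 and 7. Brown fat markers (2 of 7 kept) summed to 30.5, 146 and 195 CPM in these controls and to 24.7 to 33.6 CPM in treated tumors. Of these, Elovl3 had -7.09, from 0.175 CPM in Control 5 and 111 and 165 CPM in Controls 6 and 7, and Fabp4 had -0.18. Among those not kept, Ucp1, Cidea, Plin1 and Adipoq had 0 to 5 counts in every library, and Dio2 had 6 to 24. The 10 proliferation genes were all positive (median 0.99) and summed to 1116, 312 and 46.8 CPM in Controls 5, 6 and 7 and to 784 to 997 CPM in treated tumors. Against Control 5 alone the medians were 1.88 for hepatocyte, 1.02 for erythroid, 0.91 for brown fat, 0.65 for macrophage and 0.93 for T cell markers. They were -0.39 for endothelial, -0.69 for pericyte, -0.19 for fibroblast and -0.15 for proliferation markers in the same fit. In bulk tumors, fewer cells of a type and less RNA per cell cannot be told apart, and the part of hepatocytes and other cells in the respiratory chain values was not tested.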

How the data were processed

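RNA libraries were made with the KAPA mRNA HyperPrep kit. The paper names TopHat and HTSeq for alignment and counting, while the submitters' processing notes name Trimmomatic 0.38, HISAT2 2.1.0 and featureCounts 2.0.0. The genome build and the use of strand are not given in the sources used here. The authors deposited raw counts per gene for 55536 genes and, as a signal table, these counts after division by a size factor per library for 34685 genes, which was used here only for gene symbols. Groups followed the labels.

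Raw counts were filtered with filterByExpr (15374 genes kept), scaled by TMM and tested over all 6 libraries with edgeR's quasi-likelihood test (edgeR 4.0.16, limma 3.58.1, R 4.3.3) (Benjamini-Hochberg adjustment, threshold 0.05). DESeq2 1.42.0 was an alternative, run on all genes with counts, beside other scalings, other filters and leaving out libraries. Depth was 15529940 to 18401178 counts per library, where 3 counts correspond to 0.163 to 0.193 CPM before TMM (counting error only). Balances between paralogs were tested by two-sided exact permutation. RPKM, gene positions and shared stretches of 50 bases used GENCODE release M21 on GRCm38, which holds all 55536 identifiers. Promoter windows came from RefSeq (GRCm38.p6). Of the members, 20 shared over 10% of their stretches with another gene, 1 over 50%, and 35 none, and 29 had exons that overlap a gene on the opposite strand.

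The members and all lists were chosen with earlier results of these data known. Named genes were, per complex and for the assembly factors, the 3 with the largest and the 3 with the smallest log2 fold change, the isoform pairs, the genes of subunit c, Atp5s, Cox7a2l, and the 2 largest differences of other lists. Uqcrc2, Uqcrb, Ndufs1, Atp5a1, Atp5b, Atp5c1, Atp5d and Ndufa11 were added after their values had been seen. So were Ucp2, Romo1, Higd1a, Higd2a and the brown fat markers below the filter. The steps were tested on simulated counts, where the quasi-likelihood test made calls at a small spread but none at the spread of these data, so that an absence of calls does not show equal levels. A member is counted but not reported by name here.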

Additional observations from a re-analysis of the deposited data

How the results depend on the processing

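The labels give no pairing between control and treated mice, so that the groups were compared as unpaired. The count of members called was 0 with all controls and under every alternative, except that DESeq2 called 1 and edgeR without Control 5 called 71. In the latter fit 47.7% of all genes were called. Leaving out each library in turn, members called ranged from 0 to 71, members lower at an unadjusted p under 0.05 from 0 to 73 (73 without Control 5, beside 28.3% of all genes; 14 with all libraries; 0 without each of the others, beside 3.17% to 7.27%), members higher from 0 to 2 (1.01% to 27.2% of all genes), lower members without overlap from 1 to 75 (75 without Control 5, beside 35.3%) and higher ones from 1 to 4 (4 without Control 5, beside 36.8%). At an unadjusted p under 0.05, 27 members were lower with DESeq2 (9.56% of all genes), 24 without a filter (9.03%), 4 with upper quartile scaling (12%) and 1 with library totals alone (7.89%). Higher members without overlap were 4 with library totals alone (14.6%), 3 with upper quartile scaling (11.9%) and 2 without a filter (7.43%), and lower ones 0 with both of these scalings (3.02% and 5.27%). The median log2 fold change with library totals alone was -0.17 for complex I, -0.55 for complex III, -0.20 for complex IV, -0.23 for complex V and 0.21 for the assembly factors, beside 0.51 for all genes. Against Control 5 alone the medians were 0.37 for complex I, 0.25 for complex III, 0.32 for complex IV (over all members testable in that fit), 0.22 for complex V and 0.22 for the assembly factors, with 0 members lower and 2 higher at an unadjusted p under 0.05 (2.29% and 3.18% of all genes) and 55 higher without overlap (27.5%). The cause was not tested.

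Against Control 5 alone the log2 fold change reversed for Ndufb9 (0.38), Ndufs6 (0.62), Ndufa1 (0.42), Ndufb2 (0.31), Ndufb3 (0.60), Ndufa7 (0.16), Uqcrq (0.30), Uqcrfs1 (0.25), Uqcr11 (0.32), Uqcrc1 (0.12), Uqcr10 (0.17), Uqcrh (0.41), Ndufa4 (0.05), Cox7b (0.35), Cox6a1 (0.37), Cox7a1 (-0.02), Cox4i2 (-0.07), Atp5g1 (0.41), Atp5f1 (0.22), Atp5k (0.48), Atp5l (0.26), Atp5e (0.42), Ndufaf1 (0.25), Ndufaf2 (0.04), Ndufaf4 (0.32), Ndufaf7 (0.06), Ndufaf8 (0.52), Atp5g3 (0.22), Cox4i1 (0.25), Cox6b1 (0.28), Cox7a2 (0.22) and Cox8a (0.40). With library totals alone it reversed for Ndufb2 (0.22), Ndufb3 (0.30), Ndufa7 (0.25), Uqcrh (0.29), Atp5l (0 after rounding), Atp5e (0.11), Ndufaf7 (0.46), Ndufaf8 (0.59), Atp5s (0.14) and Cox8a (0.06), and with upper quartile scaling for Ndufaf7 (0.08) and Ndufaf8 (0.17). These scalings moved the median of all genes as well, to 0.51 and 0.19, and of the genes just listed only Ndufaf8 with library totals was above it. Ndufaf8 also reversed without a filter (0.04) and without Control 6 (0.05), Control 7 (0.10) or GOx-DOX-LGP 2 (0.04), and ranged from -0.22 to 0.10 over the libraries left out. Ndufa4l2 kept its sign throughout, between 1.18 and 3.39.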
